A study of Mus musculus with 7 samples.

Results

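The 10 genes described here control how many mitochondria a cell makes and how those mitochondria join and divide. They are the coactivator genes Ppargc1a, Ppargc1b and Pprc1, the transcription factor genes Nrf1 and Gabpa, the fusion genes Mfn1, Mfn2 and Opa1, and the fission genes Dnm1l and Fis1. They were chosen by name for this role, and all 10 were found among the 21515 genes that have a probe with a single gene symbol in the platform annotation of the array. Each had 1 probe, which carried the gene IDs 19017, 170826, 226169, 18181, 14390, 67414, 170731, 74143, 74006 and 66437 in the order above. Of the 10 genes, 9 were bright enough to be tested, and Ppargc1a was not.

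The samples were RRas2-deficient (3 arrays) and wild-type (WT, 4 arrays) germinal centre B cells, taken from mouse spleen as B220+CD95+GL7+ cells on day 7 after immunization with sheep erythrocytes, which every mouse received. The title of the series ties R-Ras2, a small GTPase, to the energy needs of germinal centre B cells, and the present comparison asks whether these regulators differ between the genotypes. The labels do not say which cells lack the gene, which part of it is missing, or the age and number of the animals, and one label field of the deficient samples reads Rras-deficient where the titles read RRas2-deficient. Total RNA was read on whole-transcript arrays as log2 intensities, on which a difference of 1 is a doubling of signal. Levels are compared between arrays for 1 gene at a time, since probes of different genes differ in how strongly they bind.

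Mitochondrial biogenesis is the growth of mitochondrial mass, and it needs genes of both the nucleus and the mitochondrial DNA. The PGC-1 family of coactivators has no DNA-binding role of its own and works through transcription factors, among them nuclear respiratory factor 1 (NRF1) and GA-binding protein (GABP, also called NRF2), which bind the promoters of many respiratory chain genes. Fusion is carried out by the mitofusins at the outer membrane and by OPA1 at the inner membrane, and fission by the dynamin-related GTPase DRP1. B cells that divide quickly, as those of the germinal centre do, remodel and copy their mitochondria as they grow and divide.

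The arrays did not divide by genotype into wider and narrower spread. Their interquartile ranges fell into a wider set, 2.69 to 2.91 in RRas2-deficient replicates 1 and 3 and WT replicates 3 and 4, and a narrower set, 2.37 to 2.49 in RRas2-deficient replicate 2 and WT replicates 1 and 2. Within the wider set the WT arrays (2.91 and 2.78) had a wider spread than the RRas2-deficient arrays (2.73 and 2.69). Genotype and spread therefore cannot be told apart within that set. In the narrower set RRas2-deficient replicate 2 (2.40) lay between the WT arrays (2.37 and 2.49). The labels give no reason for the split into sets. Of 14 germinal centre B cell markers, 11 were on the array under 1 symbol, and their mean log2 intensity was 10.12 to 10.47 on the wider arrays and 9.25 to 9.37 on the narrower ones. The B cell genes Cd79a and Ms4a1 were bright on all 7 arrays, at 11.3 or more and 9.69 or more. The means over 11 T and NK cell markers (3.89 to 4.13 in RRas2-deficient and 3.84 to 4.49 in WT arrays) and over 14 myeloid and dendritic cell markers (4.25 to 4.74 in RRas2-deficient and 4.29 to 4.59 in WT arrays) lay around the array medians of 4.34 to 4.54. Of these markers, 2 of 11 and 2 of 14 were under the limit of 3.48 below which genes were not tested. The macrophage gene Cd68 was the brightest of the myeloid list with a mean of 7.28, and Nkg7 the brightest of the T and NK list with 5.47. By array set, the T and NK means were 3.837 to 4.006 on the wider arrays and 4.13 to 4.494 on the narrower ones. They did not overlap, and 4 of the 11 genes were lower and 0 higher on all wider arrays. The myeloid and dendritic means overlapped between the sets, at 4.25 to 4.74 on the wider and 4.52 to 4.59 on the narrower arrays. There 2 of the 14 genes were lower and 0 higher on all wider arrays. The part of T, NK, myeloid and dendritic cells in the results and in the split into sets was not tested. The mean over 6 plasma cell markers was 6.98 to 7.47 in RRas2-deficient and 7.23 to 7.71 in WT arrays. Rras2 itself read 6.93, 6.68 and 7.12 in RRas2-deficient replicates 1 to 3, against 7.128, 7.41, 8.66 and 8.39 in WT replicates 1 to 4, so the genotypes did not overlap but nearly met. Its log2 difference was -0.99 ± 0.39 (SE), with an unadjusted limma p of 0.0415 and an adjusted p of 1.00. It was -1.5 within the wider arrays and -0.59 within the narrower ones, and with the set as a block it was -1.13 ± 0.20 (SE), with an unadjusted limma p of 0.000769 and an adjusted p of 0.296.

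In RRas2-deficient germinal centre B cells, 0 of the 9 tested regulators rose and 0 fell past an adjusted p of 0.05 in limma, a linear model fitted over all 16136 tested genes. In the same fit 2 of 16136 genes, or 0.0124%, passed. Means were higher for 4 regulators and lower for 5, and their median log2 difference was -0.01, against 0.0049 over all genes tested. The deficient and WT arrays overlapped for each of the 9, whereas 1.08% of all tested genes had no overlap. At an unadjusted p under 0.05 the count was 0 of 9 regulators and 132 of 16136 genes. In bulk samples such as these, fewer cells of a type and less RNA per cell cannot be told apart.

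**Figure D1:**
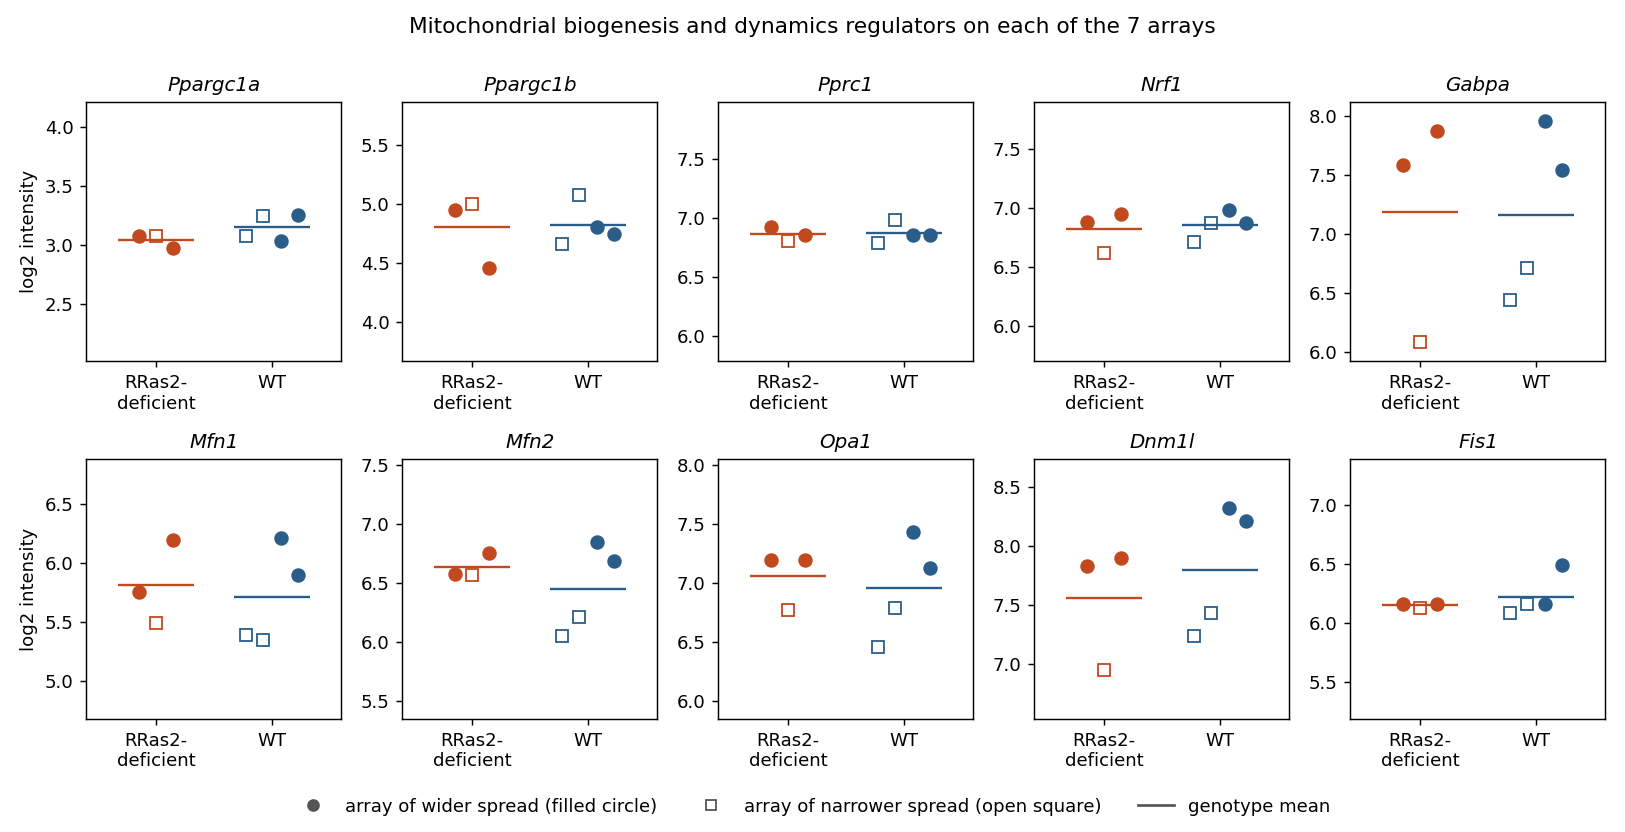
Log2 intensity of each of the 10 regulators on the 7 arrays, RRas2-deficient left and WT right, with a line at each genotype's mean. Every panel spans the same number of log2 units around its own middle, filled circles are arrays of the wider set and open squares those of the narrower set. In the panels of Gabpa, Mfn1, Mfn2, Opa1 and Dnm1l all circles lie above all squares.

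Of the 3 coactivator genes, 2 were bright enough to be tested and neither passed. Ppargc1a encodes PGC-1α, the family member best known from muscle, brown fat and fasting liver. It read 3.07, 3.07 and 2.97 in RRas2-deficient replicates 1 to 3, against 3.07, 3.24, 3.03 and 3.25 in WT replicates 1 to 4. All 7 values lie under the limit of 3.48 that was set for dim genes, the 25th percentile of mean intensity over all genes, so its level was too dim to compare and no difference is read from it.

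Ppargc1b encodes PGC-1β, a close relative of PGC-1α. It read 4.95, 5.0 and 4.46 in RRas2-deficient replicates 1 to 3, against 4.67, 5.08, 4.81 and 4.75 in WT replicates 1 to 4. The lowest array, RRas2-deficient replicate 3, and the highest, WT replicate 2, lay on either side of an otherwise mixed group. The log2 difference was -0.02 ± 0.17 (SE), with a 95% interval from -0.42 to 0.38 and a limma adjusted p of 1.00.

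Pprc1 encodes PRC, the PGC-1-related coactivator, which is known to respond to growth signals. It read 6.92, 6.81 and 6.85 in RRas2-deficient replicates 1 to 3, against 6.79, 6.98, 6.86 and 6.86 in WT replicates 1 to 4. Of the 9 tested regulators it moved least, with a range of 0.20 over the 7 arrays, and the genotypes were interleaved. Its difference was -0.01 ± 0.08 (SE), and the 95% interval, from -0.21 to 0.19, corresponds to 0.87 to 1.14 times the WT level.

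The transcription factors that the coactivators work with behaved differently from each other across arrays. Nrf1 encodes the transcription factor that drives cytochrome c and other respiratory genes. It read 6.88, 6.62 and 6.95 in RRas2-deficient replicates 1 to 3, against 6.71, 6.87, 6.98 and 6.87 in WT replicates 1 to 4. The difference was -0.04 ± 0.11 (SE), with a 95% interval from -0.31 to 0.23.

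Gabpa encodes the DNA-binding ETS-family subunit of GABP. It read 7.59, 6.09 and 7.87 in RRas2-deficient replicates 1 to 3, against 6.44, 6.71, 7.95 and 7.54 in WT replicates 1 to 4. It was the most variable of the 10, with a range of 1.87, and the narrower arrays of both genotypes were its low ones. The genotype difference was 0.02 ± 0.54 (SE), and its 95% interval reached from 0.42 to 2.47 times the WT level, a span that holds a change of 2-fold either way. With the array set held as a block the difference was -0.21 ± 0.16 (SE), the interval narrowed to 0.67 to 1.13 times the WT level and the limma adjusted p was 0.705. The covariate fit on interquartile ranges gave 0.80 to 1.5 times the WT level. Within the narrower arrays alone the log2 difference was -0.49, between 1 deficient and 2 WT arrays.

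The fusion genes had slightly higher means in the deficient cells over all arrays but not within the wider set, and none passed. Mfn1 and Mfn2 encode the mitofusins, GTPases that tether and join outer membranes, and MFN2 also links mitochondria to the endoplasmic reticulum. Mfn1 read 5.75, 5.50 and 6.20 in RRas2-deficient replicates 1 to 3, against 5.39, 5.35, 6.22 and 5.90 in WT replicates 1 to 4. Mfn2 read 6.57, 6.57 and 6.76 in RRas2-deficient replicates 1 to 3, against 6.05, 6.21, 6.85 and 6.69 in WT replicates 1 to 4. The deficient values of Mfn2 fell inside the span of the WT values, which divided into a low pair and a high pair.

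The difference was 0.10 ± 0.27 (SE) for Mfn1 and 0.18 ± 0.21 (SE) for Mfn2, each with a limma adjusted p of 1.00. For Mfn2 the sign depended on the arrays compared: the 1 deficient array of the narrower set lay 0.44 above the mean of its 2 WT arrays, and the 2 deficient arrays of the wider set lay 0.10 below the mean of theirs. For Mfn1 the narrower arrays gave 0.13 and the wider ones -0.08, and with the set as a block the difference was 0.00019 ± 0.14 (SE). The difference between the sets was not tested.

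Opa1 encodes the dynamin-like GTPase of the inner membrane that fuses it and shapes the cristae. It read 7.20, 6.77 and 7.19 in RRas2-deficient replicates 1 to 3, against 6.46, 6.79, 7.43 and 7.12 in WT replicates 1 to 4. All 3 deficient arrays lay within the span of the WT arrays. The difference was 0.10 ± 0.25 (SE), with a 95% interval from -0.48 to 0.69. It was 0.15 within the narrower and -0.08 within the wider arrays, and 0.0084 ± 0.12 (SE) with the set as a block.

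The fission gene Dnm1l was the one tested regulator with deficient arrays below the WT arrays of their own set in both sets. Of all tested genes 7.64% showed this pattern, a share that leaves out the opposite direction. Dnm1l encodes DRP1, the GTPase that assembles around a mitochondrion and constricts it, and it is needed to share mitochondria out at cell division. Dnm1l read 7.83, 6.95 and 7.90 in RRas2-deficient replicates 1 to 3, against 7.24, 7.43, 8.32 and 8.21 in WT replicates 1 to 4. Over all arrays the genotypes overlapped, with a difference of -0.24 ± 0.36 (SE) and a limma adjusted p of 1.00.

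Within a set they did not overlap. In the wider set Dnm1l read 7.83 and 7.90 in RRas2-deficient cells against 8.32 and 8.21 in WT cells, a difference of -0.40. There the WT arrays were also those of wider spread, so genotype and spread cannot be told apart. In the narrower set it read 6.95 in RRas2-deficient cells against 7.24 and 7.43 in WT cells, a difference of -0.39. With the set as a block the difference was -0.39 ± 0.08 (SE), with an unadjusted limma p of 0.00207 and an adjusted p of 0.296, so it did not pass.

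Dnm1l was the only 1 of the 9 with deficient arrays below the WT arrays in both sets, a pattern that 7.64% of all tested genes showed. It was also the only 1 of the 9 with an unadjusted p under 0.05 in the blocked fit, where 10.1% of all genes had one, so 1 of 9 is near the background. When the sets were replaced by the interquartile range itself as a covariate, the difference was -0.16 ± 0.10 (SE), with a limma adjusted p of 0.942. Without RRas2-deficient replicate 2 and without a block it turned to 0.07, and without WT replicate 3 or WT replicate 4 it shrank to -0.07 and -0.10. The other omissions without a block made it larger. It was -0.43 without WT replicate 1, -0.36 without WT replicate 2, -0.375 without RRas2-deficient replicate 1 and -0.41 without RRas2-deficient replicate 3.

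Fis1 encodes a small outer membrane protein named for yeast fission, which in mammals is also tied to mitophagy. It read 6.16, 6.13 and 6.16 in RRas2-deficient replicates 1 to 3, against 6.09, 6.16, 6.16 and 6.49 in WT replicates 1 to 4. The value was the same on 4 arrays, as can happen where few probes are summarised by medians, and WT replicate 4 alone stood higher. The difference was -0.08 ± 0.11 (SE), and it was 0.014 without that array.

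**Figure D2:**
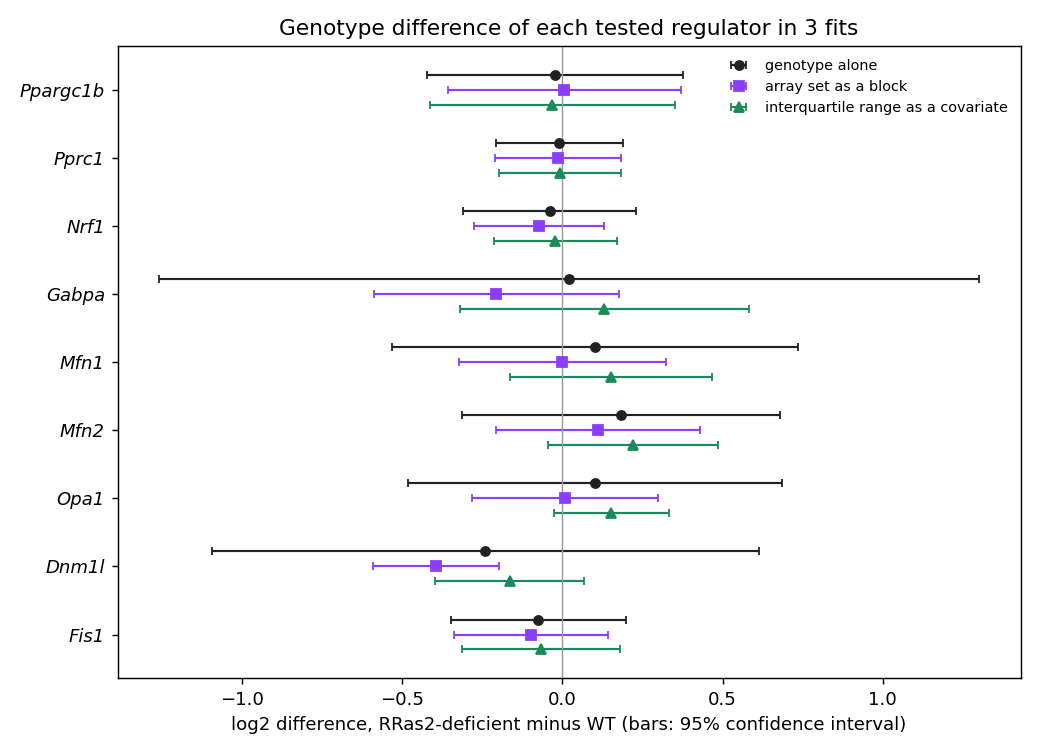
Log2 difference, RRas2-deficient minus WT, of the 9 tested regulators with 95% confidence intervals, from limma with genotype alone, with the array set as a block and with the interquartile range as a covariate. All intervals include 0 except that of Dnm1l in the blocked fit (-0.59 to -0.20), and none of the 9 passed the adjusted threshold in any of the 3 fits.

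The array sets parted 5 of the 9 tested regulators. The sets were made from the spread of the same intensities, so bright genes reading higher on the wider arrays follows in part from how the sets were drawn, and the values here are a description. Gabpa, Mfn1, Mfn2, Opa1 and Dnm1l were higher on all 4 wider arrays than on all 3 narrower ones, in both genotypes. The mean log2 intensities on the wider and the narrower arrays were 7.74 ± 0.21 and 6.41 ± 0.31 for Gabpa (SD, n = 4 and 3). They were 8.07 ± 0.24 and 7.21 ± 0.24 for Dnm1l (SD, n = 4 and 3). The sets differed by 0.61 for Mfn1, 0.56 for Opa1 and 0.44 for Mfn2, where the lowest wider array (6.572) lay just above the highest narrower one (6.567), both from RRas2-deficient cells.

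Ppargc1b, Pprc1, Nrf1 and Fis1 overlapped between the sets, with differences of -0.17, 0.01, 0.19 and 0.12. The 3 fusion genes all parted the sets, whereas of the transcription factors Gabpa did and Nrf1 did not, and of the fission genes Dnm1l did and Fis1 did not.

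The share of 5 in 9 has to be read against all genes, of which 26.9% were higher and 13.6% lower on all wider arrays. Bright genes followed the sets more often: among the 6624 tested genes at least as bright as Mfn1, 54.7% were higher on all wider arrays, and 5 of the 8 regulators of that brightness were. The regulators were therefore near the background of genes of like brightness. Of the 11 germinal centre markers, 10 were likewise higher on all wider arrays, and the B cell factor gene Pax5 overlapped between the sets. The part of cell state or array quality in this split was not tested.

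The size of the split depended on scaling. After a further quantile normalization, which forces 1 distribution on all arrays, Gabpa (0.91), Mfn1 (0.48) and Dnm1l (0.37) still had no overlap of the sets, while Mfn2 (0.08) and Opa1 (0.13) overlapped. The same step turned Nrf1 to -0.23, Fis1 to -0.17 and Pprc1 to -0.41, and Nrf1 and Pprc1 then had no overlap in the opposite direction. These 3 of 9 higher and 2 of 9 lower stand beside 20.4% of all tested genes higher and 18.1% lower on all wider arrays after the same step. With the arrays centred on their medians, which left the median tested gene 0.11 higher on the wider arrays, 7 regulators were higher on all wider arrays, Nrf1 and Fis1 among them, and 0 were lower, where 40.9% of all tested genes were higher and 4.96% lower.

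**Figure D3:**
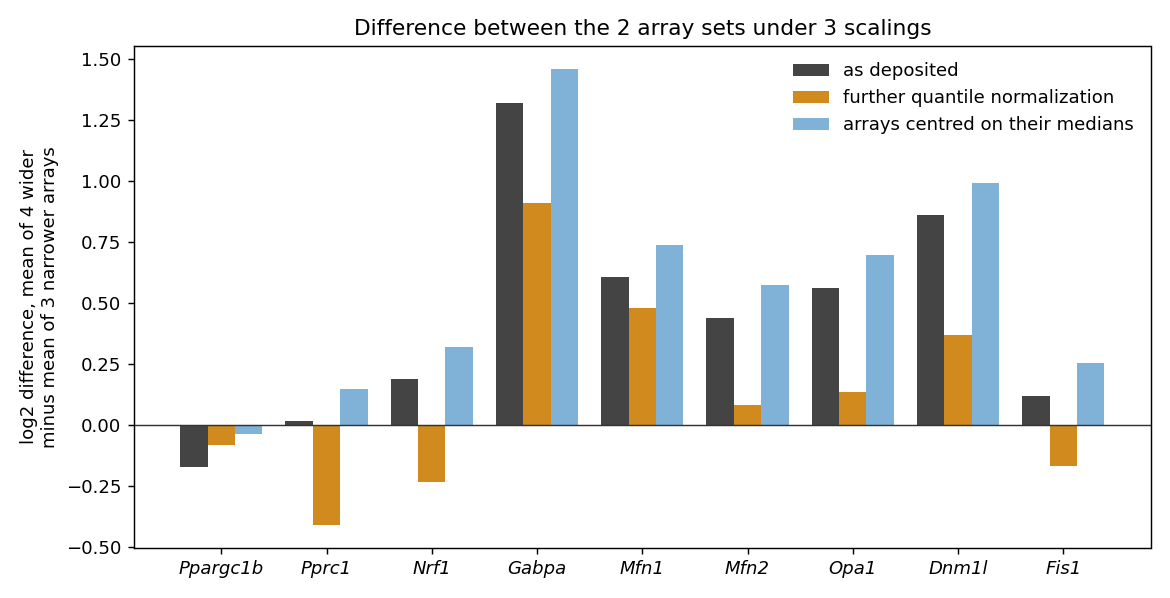
Mean log2 intensity of the 4 wider arrays minus that of the 3 narrower arrays for the 9 tested regulators, as deposited, after a further quantile normalization and after centring. Gabpa, Mfn1 and Dnm1l keep a positive bar of 0.37 or more under all 3 scalings, and the bars of Pprc1, Nrf1 and Fis1 change sign with the quantile step.

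The RefSeq promoters (build GRCm38.p6, 250 bases before to 50 after the start of transcription) were searched for motifs of GABP, NRF1 and MYC. The search is a description, and no test was run on it. The table held promoters of 9 of the 10 genes. The ETS-family motif CCGGAAG is here called the GABP motif, though it is not specific to GABP. Read on both strands, it occurred in the promoters of 4 of these 9, Gabpa itself, Mfn1, Dnm1l and Fis1. It occurred in those of 9.93% of 27025 genes. The NRF1 motif GCGCANGCG, read on both strands, occurred in 1 of the 9, Opa1, and in 7.03% of all genes. The E-box CACGTG, bound by MYC, occurred in 0 of the 9 and in 8.09% of all genes. The shares over all genes were not matched for base composition or for promoters per gene. G and C made up 54.7% to 70.3% of the promoters with a GABP match and 53.3% of that of Opa1. The median over all promoters was 52.7%. The 9 genes had 14 promoters, and the 27025 genes had 32851. A match is a description of the letters and does not show binding. The stretches with a match follow with the motif in capitals, on the strand of the gene, 5′ to 3′, and CTTCCGG is the GABP motif on the opposite strand.
Gabpa, chr16:84835011-84835057, plus strand: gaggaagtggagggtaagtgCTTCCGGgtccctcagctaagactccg
Mfn1, chr3:32529418-32529464, plus strand: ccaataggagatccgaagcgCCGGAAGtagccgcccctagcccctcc
Dnm1l, chr16:16358547-16358573, minus strand: ctgtcgcttcCTTCCGGccgctgagga
Fis1, upstream start, chr5:136953237-136953283, plus strand: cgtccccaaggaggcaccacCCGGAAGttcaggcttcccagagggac
Fis1, downstream start, chr5:136962086-136962112, plus strand: caggtcgatgCCGGAAGtgcctctccg
Opa1, chr16:29579255-29579304, plus strand: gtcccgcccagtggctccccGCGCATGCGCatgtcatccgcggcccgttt

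In the Opa1 promoter 2 overlapping matches, 1 on each strand, cover the 10 bases from 59 to 50 before the start. The GABP motif lay 44 to 38 bases before the start in Mfn1 and 93 to 87 before it in Gabpa. In Dnm1l it lay 13 to 19 after the downstream start, and the promoter of the upstream start had no match. Of the 5 genes that parted the array sets, 3 had the GABP motif (Gabpa, Mfn1 and Dnm1l), 1 had the NRF1 motif (Opa1) and Mfn2 had neither in its 3 promoters. Fis1, which did not part the sets, had the GABP motif at both of its starts. A link between these motifs and the split between the sets was not tested.

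The genes nearest in pattern were found as those with the smallest root mean square difference over the 7 arrays after each gene was centred on its mean. For Dnm1l the nearest was Tubd1 (0.056 log2 units apart), for Gabpa Rbl1 (0.056), for Mfn1 Mrpl2 (0.052), for Mfn2 Cenpt (0.058) and for Opa1 Zfp384 (0.038). For the flatter genes they were Baz2b beside Pprc1 (0.016), U2af1l4 beside Ppargc1b (0.055), 2610301B20Rik beside Nrf1 (0.020) and Slfn14 beside Fis1 (0.035), and a small distance means less where the gene hardly moves.

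The surrounding pathways gave a like picture in the fit of genotype alone. There 0 of 117 tested genes passed the adjusted threshold, and 0 had an unadjusted limma p under 0.05. Among 27 transcriptional partners of biogenesis, such as receptors, kinases and deacetylases that act on PGC-1, 13 had higher and 14 lower means, with a median log2 difference of 0.00. The 3 of lowest p were Prkaa2, a catalytic subunit of AMPK (0.13 ± 0.09, log2 difference ± SE), the deacetylase gene Sirt1 (-0.21 ± 0.19) and the retinoid X receptor gene Rxra (0.11 ± 0.11). Prkaa2 was dim, with means of 3.56 in RRas2-deficient and 3.43 in WT cells. Rxra read the same value, 4.741, in RRas2-deficient replicates 1 and 2 and WT replicates 1 and 4.

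Among 21 nuclear genes listed as targets of NRF1 or GABP, 10 had higher and 11 lower means (median -0.01). These include Uqcrq, which a synonym search put in place of the listed Uqcrb, a gene not found under 1 symbol. The complex IV subunit gene Cox5b differed by -0.32 ± 0.30 (SE), the complex IV assembly gene Surf1 by -0.26 ± 0.29 and the mitochondrial transcription factor gene Tfb2m by -0.28 ± 0.36. Cox5b read 9.31, 8.14 and 8.36 in RRas2-deficient replicates 1 to 3, against 8.77, 8.64, 9.10 and 9.19 in WT replicates 1 to 4. The deficient arrays thus held both its highest and its lowest value. Its difference was -0.68 without RRas2-deficient replicate 1, -0.095 without RRas2-deficient replicate 2 and -0.084 as the mean over its probes. That of Surf1 was -0.0036 without RRas2-deficient replicate 2 and -0.096 without WT replicate 3. For Tfb2m the difference was -0.449 as the mean over its probes and 0.018 without WT replicate 3.

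Among 23 adaptors and regulators of fission, 9 had higher and 14 lower means (median -0.06). Inf2, a formin that builds actin at sites of division, had the lowest p, with 6.30, 6.38 and 6.07 in RRas2-deficient replicates 1 to 3, against 5.82, 6.13, 6.0 and 6.09 in WT replicates 1 to 4. Its difference of 0.24 ± 0.12 (SE) had an unadjusted p of 0.0877 and a limma adjusted p of 1.00. The formin gene Fmn2 (0.14 ± 0.10) and the dynamin gene Dnm2 (0.11 ± 0.08) followed.

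Among 28 genes of fusion, inner membrane processing and cristae, 8 had higher and 20 lower means (median -0.05), where 48.3% of all tested genes had lower means. Those of lowest p were Pld6, a phospholipase of the outer membrane (-0.30 ± 0.20, log2 difference ± SE), the paraplegin protease gene Spg7 (0.14 ± 0.11) and Rhot2, a GTPase that ties mitochondria to motor proteins (-0.11 ± 0.09). Spg7 read 6.535 on every array but RRas2-deficient replicate 2 (6.744) and WT replicate 1 (6.273), and its difference was 0 on the wider arrays alone. Among 24 mitophagy genes 9 had higher and 15 lower means (median -0.05). There the autophagy genes Calcoco1 (-0.20 ± 0.12), Atg7 (-0.09 ± 0.07) and Map1lc3a (0.16 ± 0.16) had the lowest p. Atg7 read the same value, 6.293, in RRas2-deficient replicate 1 and WT replicates 1, 3 and 4.

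With the array set as a block, lower means were more common in all 5 lists. They were found in 18 of 21 targets of NRF1 or GABP (median -0.20), 25 of 28 fusion and cristae genes (-0.19), 17 of 23 fission genes (-0.13), 21 of 24 mitophagy genes (-0.09) and 17 of 27 partners (-0.03). In that fit 50.9% of all tested genes were lower and the median was -0.0033, and 0 list genes passed the adjusted threshold. Several list genes had an unadjusted limma p under 0.05 in the blocked fit, such as Surf1 (-0.38, p 0.0032) and Sirt1 (-0.28, p 0.017). All of these were lower in RRas2-deficient cells. Of all tested genes 10.1% had such a p, in either direction. The lean was lost with the interquartile range as a covariate, where 10 of 21, 13 of 28, 11 of 23, 12 of 24 and 15 of 27 were lower. These lists share 6 genes. Of the 117 list genes, 71 were higher and 6 lower on all wider arrays, against 26.9% and 13.6% of all tested genes. Among the 92 list genes at least as bright as Mfn1, 66 were higher on all wider arrays, against 54.7% of all tested genes of that brightness. Within the wider set the WT arrays had the wider spread, and in the narrower set the RRas2-deficient array (2.40) lay between the WT arrays (2.37 and 2.49). The part of array spread in this lean was not tested. The counts are given as a description.

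**Figure D4:**
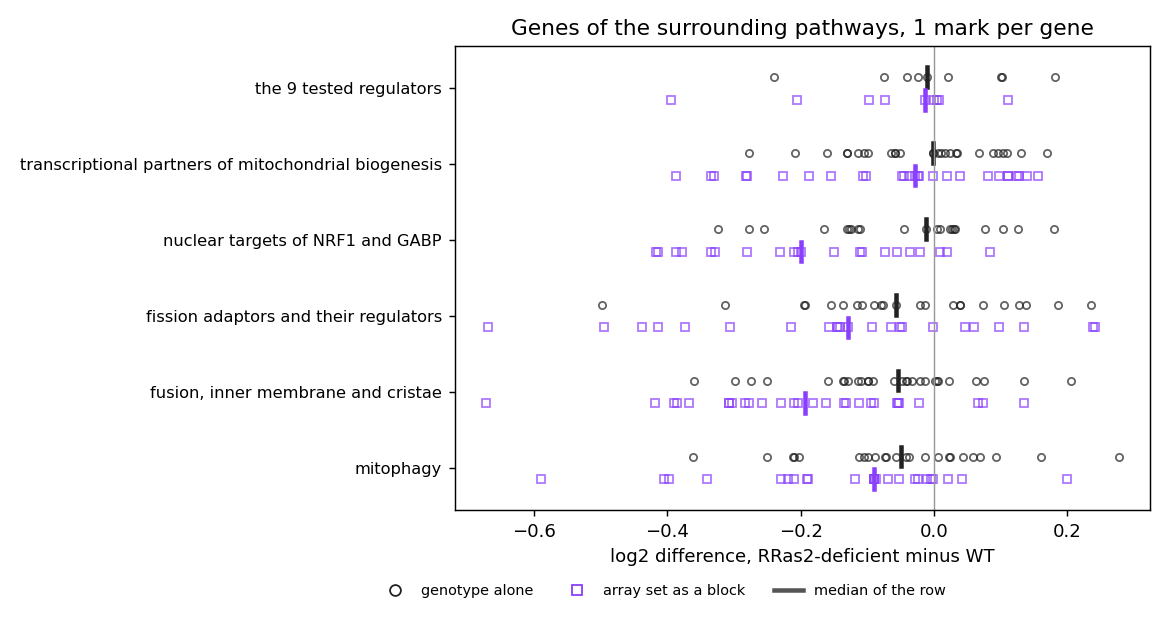
Log2 difference, RRas2-deficient minus WT, of each tested gene in 5 lists of the surrounding pathways and of the 9 regulators, with genotype alone (circles) and with the array set as a block (squares), and a bar at each median. The medians of the lists lie between -0.06 and 0.00 with genotype alone and between -0.20 and -0.03 with the block.

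None of the 10 regulators lies on chromosome 7, which carries Rras2. Opa1, Gabpa and Dnm1l lie on chromosome 16, Ppargc1a and Fis1 on 5, and Mfn1, Mfn2, Nrf1, Ppargc1b and Pprc1, in this order, on 3, 4, 6, 18 and 19.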

How the data were processed

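Per the labels' protocols, total RNA was labelled with biotin and read on 1 whole-transcript array per sample. The authors deposited log2 intensities, and the submitters' processing notes name RMA and the package oligo, without versions. The platform annotation named the genes, with 1 probe kept per gene (the brightest of several). Genes whose mean lay under the 25th percentile (3.48) were set aside, which kept 16136 of 21515. limma 3.58.1 (R 4.3.3) tested each gene for RRas2-deficient minus WT, two-sided and without covariates, with Benjamini-Hochberg adjustment over all tested genes and a threshold of 0.05. All p-values are limma's. The labels call the samples biological replicates without naming animals, so a p-value covers only the spread among these samples. Precision is limited by the number of arrays.

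The regulators, lists, array sets and tests were chosen with earlier results of these data known. Genes named from the lists are the 3 of lowest unadjusted p in each. The array sets lie on either side of an interquartile range of 2.59, the middle of its widest gap. Alternatives were other filters, scalings, variance models, array weights, blocks and leaving out each array. The split between sets under other scalings and its share among bright genes were added after seeing the data. The fit was tested on simulated data. Promoter sequences come from RefSeq, and figures were drawn with matplotlib 3.10.9.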

Additional observations from a re-analysis of the deposited data

How the results depend on the processing

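None of the 9 regulators passed the adjusted threshold under any of 26 alternatives. Over these, the lowest limma adjusted p of any regulator was 0.250, for Dnm1l with the array set as a block and without WT replicate 4. The number of all genes called was 1 with centred arrays, 5 with array weights, and 0 with the replicate block, on the narrower arrays alone and on the wider arrays alone. It was 0 to 2 when each array was left out, with or without the set as a block.

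Small differences changed sign. With array weights Pprc1 was 0.025, Nrf1 0.013, Mfn2 -0.011 and Map1lc3a -0.059, and after a further quantile normalization Pprc1 was 0.0025. With the array set as a block Gabpa was -0.21 and Ppargc1b 0.0055. On the narrower arrays alone Gabpa was -0.49, Ppargc1b 0.12, Fis1 0.0030 and Rxra -0.016. On the wider arrays alone Gabpa was -0.017, Mfn1 -0.084, Mfn2 -0.10, Opa1 -0.084 and Pprc1 0.031. The cause was not tested.

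Leaving out each array, alone or with the set as a block, gave ranges of -0.43 to 0.065 for Dnm1l, -0.36 to 0.57 for Gabpa, -0.12 to 0.15 for Ppargc1b, -0.040 to 0.031 for Pprc1 and -0.12 to 0.058 for Nrf1. They were -0.090 to 0.27 for Mfn1, -0.10 to 0.32 for Mfn2, -0.084 to 0.26 for Opa1, -0.17 to 0.014 for Fis1, -0.61 to 0.018 for Tfb2m and -0.010 to 0.31 for Map1lc3a. In the blocked fits that each left out 1 array, Dnm1l stayed between -0.43 and -0.36.

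The sample titles do not say whether the replicate numbers pair the samples. Deviations from the genotype means correlated at -0.589, 0.784 and 0.664 for numbers 1 to 3. Numbers 2 and 3 each join arrays of the same set and number 1 joins arrays of different sets. These values therefore cannot decide whether the samples are paired. With the replicate block, which sets WT replicate 4 aside, the median difference of the regulators was 0.014, Fis1 was 0.014 and Dnm1l -0.10.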
